A study of Solanum tuberosum with 2 samples.

Results

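Genes that lie side by side on a potato chromosome and were all higher in cut single-node explants than in uncut plantlets formed 65 runs, which together held 245 genes. A run was defined by the measured values themselves: the genes of chromosomes 1 to 12 with at least 50 reads over both libraries were put in the order of their start, and 3 or more consecutive genes entered a run when the log2 level of each was higher by at least 2, a 4-fold difference, in the cut library. Of the 40430 features measured, 21197 were kept for this order, and 1743 of these (8.22%) were higher in the cut library by at least 2. The genes in runs were 14.1% of the higher genes and 1.16% of the kept genes. Since the difference chose the members, that they are higher is a description and no result. The choice used the order of the genes, but not their distances, strands or lengths. Genes between members were left out of that order, and a gene beside a run cannot pass the threshold.

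The data were values of poly(A)-enriched RNA from 2 libraries of wild type in vitro potato of the cultivar Desirée. The cut library came from single-node segments that each carried a leaf and were cut out of plantlets 4 weeks old, and the uncut library from whole plantlets of that age left intact. A sheet of the study gives the cut library as the control of its ultrasound experiment at 0 h, so these explants had not been ultrasonicated. Each library pooled 3 biological replicates, which left 1 library per condition, so none of the differences has a replicate check. The labels give leaf as the tissue of both libraries, whereas a node with a leaf and a whole plantlet do not hold the same organs, so cutting and the change of organ cannot be told apart. Nor can a larger share of a cell type be told apart from more RNA per cell.

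Plant genes are often found in tandem clusters, in which copies made by unequal crossing-over or local duplication sit one after another, commonly on the same strand. Families used in defence and specialised metabolism, among them protease inhibitors, lectins, glycosyltransferases and berberine bridge enzyme-like oxidases, are well known for such clusters. Neighbours can also share expression because they share a stretch of open or closed chromatin, a promoter that works in both directions, or transcripts that run from a gene into the next. Wounding of a potato leaf is a classical inducer of protease inhibitors, which are part of the response to chewing insects and are switched on through jasmonate signalling.

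The deposited values were log2 RPM, reads scaled to a common library total, and the steps between low values gave back whole reads. All values tested came out whole within 0.05 read, 19863 of them in the cut library and 18253 in the uncut one. The total of reads behind the scaling was 33850940 in the cut and 37955480 in the uncut library, so the uncut library was 1.12 times as deep. Reads summed over genes came to 60081924 in the cut and 67314360 in the uncut library, 1.77 times the total in each, so the totals and the gene reads are not in the same unit or some reads were counted more than 1 time. RPM is scaled by these totals, as deposited. Intervals of folds, ratios and differences are exact 95% intervals for counting error only. They take each read as independent, and with reads counted more than 1 time they are too narrow. A gene listed without reads was taken at 3 reads, and its fold is given as at least a value. Over the kept genes the median log2 difference was -0.34, and 1559 genes (7.35%) were lower in the cut library by at least 2. Higher genes were thus 52.8% of those past the threshold, and 66.9% when the libraries were scaled so that the median difference was 0. Genes that the study's sheet names were read against these shares of 8.22% higher and 7.35% lower. The sheet's choice used the cut library as a control, so these lists are not independent of that library. Of all kept genes that the sheet names, 15.4% were higher. Of 9 leaf genes 0 were higher and 1 was lower, with a median difference of -0.74, although their summed level was 405 RPM in cut and 357 RPM in uncut. Of 6 root genes 0 were higher and 3 were lower, with a median of -1.93 (530 RPM in cut, 818 in uncut). Of 19 defence genes with enough reads 7 were higher and 0 lower, and the list had a median of 1.18 (5768 RPM in cut, 1761 in uncut). All genes of the leaf and root lists had reads in both libraries, and the part of organ content in the runs was not tested.

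Most runs were short. The smallest size allowed, 3 genes, accounted for 41 of the 65 runs, and 15 had 4 genes. There were 3 runs of 5 genes, 2 of 6, 2 of 7, and the longest had 10 and 11 genes. The same count for genes lower in the cut library gave 30 runs with 101 genes, 6.48% of the lower genes, and the longest of these had 7. That contrast depended on the threshold: at a difference of at least 1.5 there were 100 higher runs (15.3% of the higher genes) and 103 lower runs (13% of the lower genes), and at 3 there were 32 higher runs (14%) and 1 lower run (0.583%). Outside the runs, 180 pairs of higher neighbours and 1138 single higher genes had a neighbour on either side that did not pass. Of the 1743 higher genes, 360 (20.7%) had a higher gene as the next one along the chromosome, against 8.22% higher among all kept genes.

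**Figure D1:**
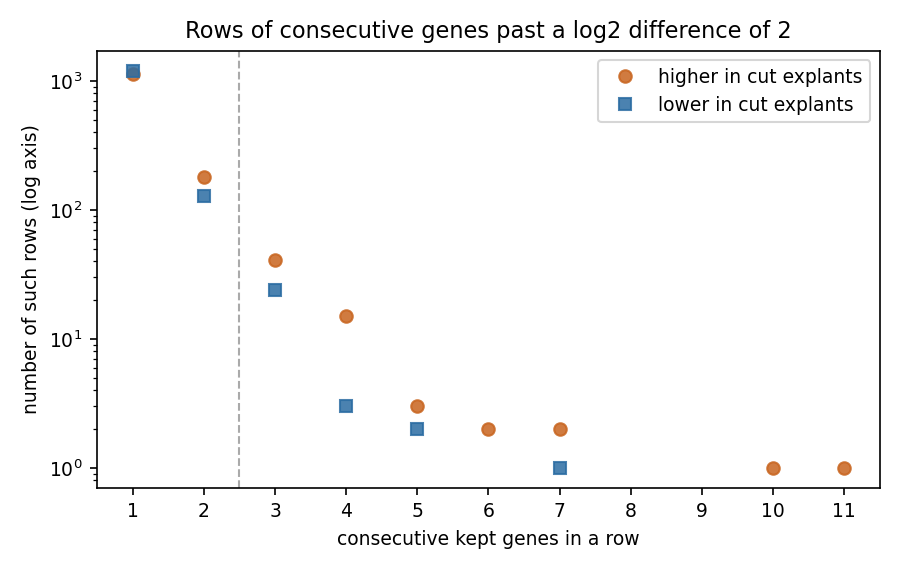
Number of rows (log axis) of consecutive kept genes past a log2 difference of 2, by the number of genes in the row. Circles count rows higher and squares rows lower in cut explants, and the dashed line marks the 3 genes from which a row counts as a run. Rows of 10 and 11 genes occurred among the higher genes, and the longest lower row had 7 genes.

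The runs were spread over all 12 chromosomes, unevenly. Chromosome 8 held 11 runs with 46 genes, 3.05% of its 1506 kept genes, and chromosome 7 held 10 runs with 31 genes, 1.99% of its 1555 kept genes. Chromosome 1, with the most kept genes (2703), held 9 runs with 41 genes, or 1.52%. At the low end, chromosome 2 had 11 of 2165 kept genes in 3 runs (0.508%), and chromosome 6 had 11 of 1967 in 3 runs (0.559%). The share of higher genes was 10.2% on chromosome 8 and 9.15% on chromosome 2, while 46 and 11 genes lay in runs. These chromosomes were picked as the highest and the lowest. Genes of a run are not independent, so no test was made. Chromosome 8 carried the run of 10 genes and a run of 7, and chromosome 1 the run of 11 genes and the other run of 7. Successive runs of a chromosome were mostly far apart, with a median distance of 3988 kb and 3 distances under 100 kb.

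**Figure D2:**
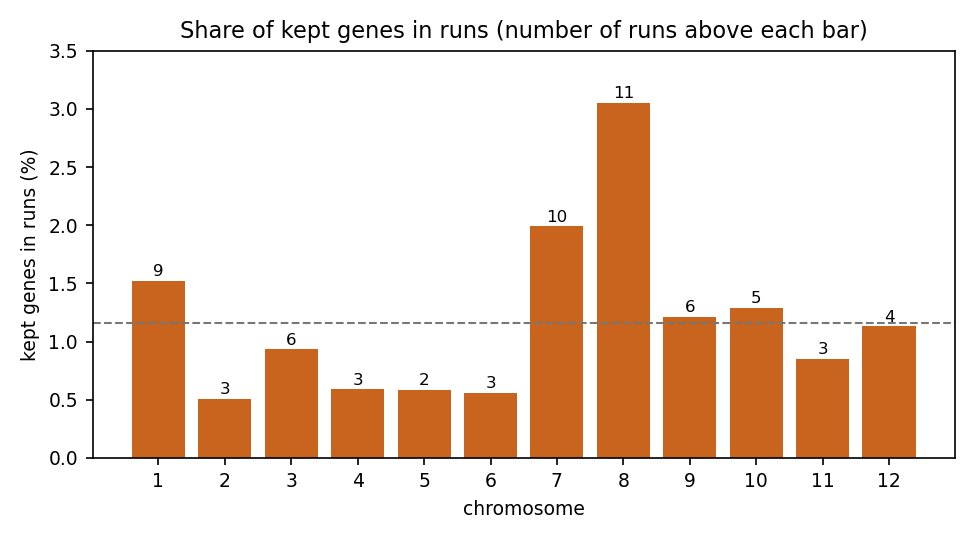
Share of kept genes that lay in runs (%) on each of the 12 chromosomes, with the number of runs above each bar and the share over all kept genes, 1.16%, as a dashed line. Chromosome 8 stood highest with 3.05% and chromosome 2 lowest with 0.508%.

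The runs held 24 with 4 or more genes, and these 122 genes are described first, by their reads in each library. Positions are those of the potato assembly SolTub 3.0 as deposited. The files name no gene, and the sources used here give a name to 10 of the 245 members, so the others are given by position. Neighbours in a number of runs have identifiers that differ only in the prefix before a shared gene number. Among runs of 3 genes, this held on chromosome 2 from 36694089 to 36720973 and on chromosome 7 from 46789824 to 46805487. It also held on chromosome 9 from 5791781 to 5813147 and in other runs of 3 or more genes. Counted as 1 gene, such models would leave the runs named here under the smallest size allowed. Whether such models are separate genes was not tested, and the counts of runs and genes take each as a gene.

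The longest run lay on chromosome 1 from 66729395 to 66889035, and 10 of its 11 genes were on the plus strand. In order of position the genes had 200, 240, 328, 127, 263, 57, 830, 289, 83, 367 and 1094 reads in the cut library, against 16, 20, 5, 6, 17, 0, 5, 0, 0, 1 and 2 reads in the uncut library. The highest uncut count of the run was 20 and the lowest cut count 57. The read minimum and the 4-fold rule keep the cut count of any member from being low, so this gap is no result. The first gene was 14-fold higher in the cut library (8.42 to 25) and the last 613-fold higher (169 to 5071), the value for the last resting on 2 uncut reads. Inside its 159.6 kb the run held 7 genes with too few reads to be kept, with 60 reads in the cut and 10 in the uncut library summed over them. The kept gene before the run differed by 1.35 and the one after it by -1.38 on the log2 scale, so the difference changed sign at that end.

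The second longest run, of 10 genes, lay on chromosome 8 from 43965118 to 44182235 over 217.1 kb, with 9 genes on the minus strand. Its genes had 1267, 674, 2332, 3780, 1838, 2655, 6536, 988, 10862 and 17523 reads in the cut library, against 48, 62, 88, 55, 59, 198, 422, 228, 759 and 1043 reads in the uncut library. All 10 were well measured in both libraries, unlike the genes of the 11-gene run. The difference was largest at the fourth gene, 6.27 (5.88 to 6.68), and smallest at the eighth, 2.28 (2.07 to 2.49). Summed over the run the reads came to 48455 in the cut and 2962 in the uncut library, a difference of 4.20 on the log2 scale. The flanking genes differed by 0.15 and 1.22.

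A run of 7 genes lay near the start of the map of chromosome 8, from 78521 to 118220, and showed the widest spread of differences of all 65 runs. Its genes had 180, 2518, 116, 1458, 13927, 1624 and 529 reads in the cut library, against 1, 2, 0, 4, 126, 400 and 111 reads in the uncut library. The first 4 genes were therefore close to absent from the uncut library, while the last 2 were clearly detected there. The second gene, PGSC0003DMG400012527 at 94462 to 95652, had the largest difference among members with an uncut read, 10.46 (8.61 to 13.51), which rests on 2 uncut reads. The sixth gene, at the other extreme of this run, differed by 2.19 (2.03 to 2.35). The kept gene after the run was lower in the cut library, with a difference of -2.36.

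The other run of 7 genes lay on chromosome 1 from 2879354 to 2923755. Its genes had 726, 209, 451, 269, 1207, 513 and 3959 reads in the cut library, against 12, 10, 4, 7, 112, 50 and 228 reads in the uncut library. The first 4 genes were on the plus strand with at most 12 uncut reads each, and the last 3 were on the minus strand with at least 50. The last gene, PGSC0003DMG400021325 (2922354 to 2923755), is named E3 ubiquitin-protein ligase PUB23-like, and PUB23 is a U-box ubiquitin ligase that in Arabidopsis dampens immune and drought responses. It was 19.5-fold higher (17 to 22.3). A gene with a difference of 1.55, under the threshold for membership, preceded the run.

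Of the runs of 6 genes, that of chromosome 12, from 55443585 to 55490806, held genes abundant in both libraries. Reads were 967, 12318, 14956, 6321, 6829 and 4096 in the cut library, against 134, 1558, 2396, 495, 741 and 1054 in the uncut library. Differences stayed between 2.12 and 3.84, and no gene was near 0. The run of 6 on chromosome 11, from 45238065 to 45266065, had 1749, 827, 788, 342, 2416 and 5589 reads in the cut library, against 272, 26, 3, 34, 111 and 133 reads in the uncut library. Its genes were all short, between 618 and 763 bases, and its differences ran between 2.85 and 8.20. The gene at the top of that range, which had 788 cut reads, was 295-fold higher (100 to 1431) on 3 uncut reads.

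Among the runs of 5 genes, that of chromosome 3 from 58667943 to 58686432 counted some of its reads more than 1 time. Reads were 84, 13193, 11637, 11570 and 15544 in the cut library, against 4, 1039, 947, 940 and 570 in the uncut library. The 3 gene models in its middle lie on the plus strand and end at the same base, 58682559, so they shared exonic sequence, and their counts are not separate measurements. Counted as 1 gene they would leave 3 genes in this run, differing by between 3.78 and 4.93. The run of chromosome 5, from 1200301 to 1207110, packed 5 genes into 6.8 kb on alternating strands. It had 205, 196, 208, 94 and 637 reads in the cut library, against 10, 15, 29, 1 and 55 in the uncut library, and the kept gene after it was lower in cut, with a difference of -3.24. The run of chromosome 10 from 476402 to 532180 had 328, 169, 241, 4825 and 334 reads in the cut library, against 16, 19, 1, 729 and 22 in the uncut library. The gene with 4825 cut reads, on the opposite strand to the other 4, carried most of the reads of the run.

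**Figure D3:**
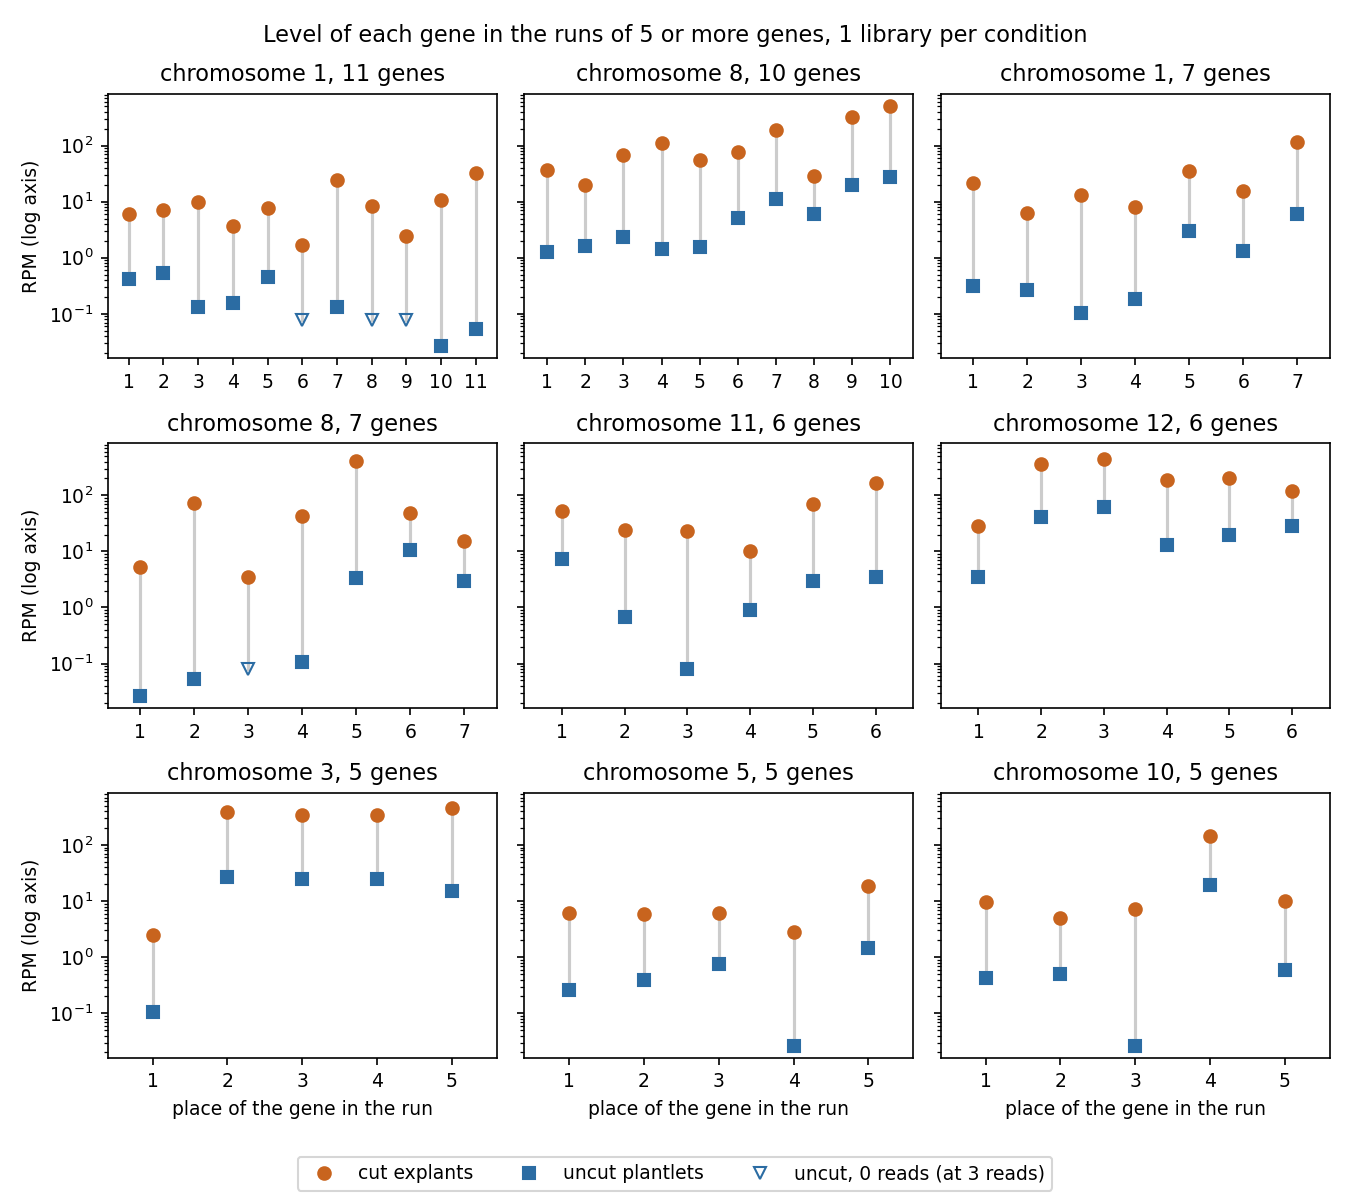
Level (RPM, log axis) of each gene in the 9 runs of 5 or more genes, by place in the run, in cut explants (circles) and uncut plantlets (squares). Open triangles mark genes with 0 uncut reads, drawn at 3 reads, and the grey line joins the values of a gene. In the 11-gene run of chromosome 1 the uncut values sit near the floor, and in the 6-gene run of chromosome 12 they lie well above it.

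In 4 of the 15 runs of 4 genes, every gene had a log2 difference of 7 or more, counting 0 as 3 reads. The run of chromosome 8 from 12051013 to 12268141 had 3302, 2258, 3074 and 415 reads in the cut library, against 10, 0, 6 and 1 in the uncut library. The second of these genes was at least 844-fold higher in the cut library. The run of chromosome 3 from 50882145 to 50918063 had 6674, 1120, 1657 and 2493 reads in the cut library, against 19, 0, 0 and 4 in the uncut library. Its first gene was 394-fold higher (252 to 655), and the genes without uncut reads were at least 419-fold and at least 619-fold higher. The last, PGSC0003DMG400015242 at 50916453 to 50918063, differed by 9.45 (8.09 to 11.33), and both flanks were slightly lower in cut, at -0.90 and -0.40.

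The run of chromosome 10 from 43574874 to 43601052 had 349, 487, 1636 and 1591 reads in the cut library, against 0, 3, 10 and 5 in the uncut library. The run of chromosome 2 from 29317496 to 29385406, all on the minus strand, had 1412, 363, 1105 and 13971 reads in the cut library, against 12, 0, 0 and 77 in the uncut library. Its second gene, PGSC0003DMG400021108 (29336420 to 29338253), carries the name tetrahydrocannabinolic acid synthase-like. That name belongs to the berberine bridge enzyme-like family of flavin oxidases, whose members in many plants oxidise alkaloids or sugars. It was at least 136-fold higher in the cut library.

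A further group of 4-gene runs combined genes without uncut reads and genes with some. On chromosome 1 from 61842159 to 61925042 reads were 8600, 6596, 90 and 503 in the cut library, against 319, 122, 0 and 8 in the uncut library, all on the plus strand. The second gene of this run, PGSC0003DMG400008985 (61847861 to 61849980), is named basic 7S globulin-like and was 60.6-fold higher (50.7 to 73.1). Basic 7S globulins are aspartic protease-like proteins first known from soybean seed, and relatives inhibit cell-wall degrading enzymes of microbes. On chromosome 7 from 1872055 to 1886443 reads were 334, 122, 96 and 113 in the cut library, against 25, 0, 0 and 0 in the uncut library. On chromosome 9 from 10971764 to 11151864 reads were 217, 164, 122 and 1277 in the cut library, against 8, 0, 0 and 175 in the uncut library. In both of these, all 4 genes lay on the minus strand and the genes without uncut reads were consecutive.

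On chromosome 2 from 43886377 to 43906821 reads were 9532, 48, 470 and 131 in the cut library, against 2090, 5, 12 and 0 in the uncut library. On chromosome 4 from 7634007 to 7654709 reads were 11069, 260, 163 and 497 in the cut library, against 2786, 0, 45 and 37 in the uncut library. The first gene of this run on chromosome 4, PGSC0003DMG400010759 (7634007 to 7635094), is named histone H3.v1-like and differed by 2.16. A further run followed it closely, so the stretch from 7634007 to 7736932 held 8 higher genes in 2 runs. That further run, from 7713878 to 7736932, had 160, 353, 377 and 247 reads in the cut library, against 37, 44, 56 and 21 in the uncut library. The kept gene that closed the first of them on that side differed by 1.93, just under the threshold.

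The remaining 4-gene runs had reads for every gene in both libraries. On chromosome 1 from 65337135 to 65366780 reads were 4149, 546, 1059 and 615 in the cut library, against 468, 102, 162 and 98 in the uncut library. The last 3 genes are between 429 and 458 bases long, and the last 2, PGSC0003DMG400006789 and PGSC0003DMG400006887, share the name hypothetical protein BC332_02579, which gives no function. On chromosome 6 reads were 3798, 1441, 142 and 155 in the cut library, against 463, 68, 4 and 16 in the uncut library, for the run from 7981326 to 8146156. For the run of chromosome 6 from 56583479 to 56603782 they were 2296, 244, 124 and 5722 in the cut library, against 65, 33, 23 and 1018 in the uncut library. In each of these runs the cut and uncut reads of single genes spanned a wide range while every difference was at least 2.59.

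On chromosome 8 from 2339008 to 2365922 reads were 150, 464, 791 and 38598 in the cut library, against 16, 61, 37 and 7726 in the uncut library. The last gene of that run had most of its reads, and its difference, 2.49, was the smallest of the 4. On chromosome 12 from 11121480 to 11265390 reads were 7096, 1673, 482 and 133 in the cut library, against 1013, 266, 85 and 28 in the uncut library. These 4 genes differed by nearly the same amount, between 2.41 and 2.97.

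Of the 41 runs of 3 genes, the one with the most reads lay on chromosome 3 from 43019053 to 43040664, with 54169, 54766 and 269 reads in the cut library, against 11448, 11149 and 73 in the uncut library. Its first 2 gene models overlap on opposite strands (43019053 to 43024823 on the plus and 43020442 to 43025464 on the minus strand) and had almost the same reads in each library. Whether the counting used the strand is not given in the sources used here, so reads of these genes cannot be told apart. The same holds for the run of chromosome 4 from 67630129 to 67729138, with 19155, 781 and 765 reads in the cut library, against 4293, 23 and 23 in the uncut library. Its last 2 models cover the same bases, 67728573 to 67729138, on either strand. The model on the minus strand, PGSC0003DMG401007944, is named probable carbohydrate esterase At4g34215. Without this doubling the stretch would hold 2 genes and would not be a run.

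A few 3-gene runs were singled out after their values were seen or because a source names a gene in them. On chromosome 3 from 49780584 to 49826578 reads were 58, 25965 and 1447 in the cut library, against 3, 3206 and 4 in the uncut library. The last 2 genes are the Kunitz-type protease inhibitor precursor PGSC0003DMG400009511 (49798113 to 49798938) and Kunitz-type inhibitor B, PGSC0003DMG400009512 (49826018 to 49826578). Kunitz-type inhibitors block serine and other proteases in the gut of insects and are stored in potato tubers and made in wounded leaves. The precursor was 9.08-fold higher (8.75 to 9.42) and inhibitor B 406-fold higher (158 to 1491), inhibitor B on 4 uncut reads. These neighbours on the minus strand were 27080 bases apart, and both belong to the defence list above.

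On chromosome 9 from 5791781 to 5813147 reads were 3248, 1564 and 5763 in the cut library, against 224, 36 and 175 in the uncut library. The first and second models share a gene number. The third gene, PGSC0003DMG400020906 (5809494 to 5813147), is named aquaporin PIP2-1-like, a water channel of the plasma membrane, and was 36.9-fold higher (31.8 to 43.2). On chromosome 11 from 11741793 to 11938727 reads were 361, 210 and 1761 in the cut library, against 0, 0 and 4 in the uncut library. The run with the shortest span, on chromosome 1 from 66419482 to 66424059, had 945, 10839 and 76 reads in the cut library, against 114, 1745 and 11 in the uncut library. The run with the widest span, on chromosome 1 from 35875121 to 37072498, had 186, 1766 and 8226 reads in the cut library, against 41, 312 and 1228 in the uncut library. Its genes were 528805 and 653315 bases apart with 24 genes of too few reads in between, so they are neighbours only in the order of kept genes. The sheet of the study names 325 kept genes, which were chosen there for a response to ultrasound. Of these, 50 (15.4%) were higher, against 8.22% of all kept genes, and 10 (3.08%) lay in runs, against 1.16%. As the sheet's choice used the cut library as its control, these shares are a description and not independent of it.

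The other 33 runs of 3 genes, with 99 genes, had between 43 and 39011 reads per gene in the cut library (median 908) and between 0 and 9255 in the uncut library (median 67). Most of their genes differed moderately, for 72 had a difference under 4 and 5, each in a run of its own, had no uncut reads. The largest differences among these were found in a pair of runs, chosen here after their values were seen. On chromosome 7 from 46789824 to 46805487 reads were 672, 2252 and 3726 in the cut library, against 19, 9 and 67 in the uncut library, all on the minus strand, and the gene in the middle was 281-fold higher (148 to 614). On chromosome 9 from 56222853 to 56297287 reads were 1026, 3464 and 8837 in the cut library, against 3, 422 and 684 in the uncut library. There the first gene was 383-fold higher (131 to 1863) while the others were 9.2-fold and 14.5-fold higher. At the moderate end, the run of chromosome 3 from 54658892 to 54679955 held genes of like length, 1774, 1757 and 1803 bases, on a single strand. They had 1960, 1448 and 2260 reads in the cut library, against 342, 354 and 392 in the uncut library. Whether these are copies of a gene was not tested, since no sequence was used here.

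Genes within a run differed in how much higher they were. With 0 taken as 3 reads, the range of the log2 difference within a run had a median of 1.58 and went between 0.10 and 8.28. In 19 runs it was under 1, and in 9 runs over 4, against 13 runs over 4 with the deposited value of a gene without reads, which equals 0.9 read. The narrowest, on chromosome 8 from 52767338 to 52782622, had 99, 2011 and 819 reads in the cut library, against 9, 194 and 80 in the uncut library. A single gene carried a median of 65.4% of the cut reads of its run, a share that also depends on gene length, and in 12 runs it carried over 90%. Most runs thus held genes with unlike folds.

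The distance between neighbours in runs was of the order of that between neighbouring genes in general. The median distance from the end of a gene to the start of the next was 7.59 kb for the 180 neighbouring pairs in runs (quartiles 2.91 and 20.4 kb) and 6.22 kb for all 21185 neighbouring pairs of kept genes (quartiles 1.6 and 20.1 kb). Which of them was larger depended on the size of run allowed, since runs of 2 or more genes had a median of 5.55 kb. When a scarce gene ended a run, the medians were 4.35 kb in runs and 3.44 kb over all pairs of kept genes with no scarce gene between them. At most 5 kb separated 40.6% of the pairs in runs and 45.3% of all pairs. Distances of at most 100 kb covered 97.2% of the pairs in runs and 94% of all pairs, and 8 pairs in runs (4.44%) overlapped, against 4.87% of all pairs. A run spanned a median of 32.5 kb (quartiles 21.1 and 63.2 kb), with 30 runs under 30 kb and 10 over 100 kb.

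Neighbours in runs were more often on the same strand. This held for 126 of the 180 pairs in runs (70%), against 11039 of all 21185 neighbouring pairs (52.1%). Without overlapping pairs the shares were 70.3% of 172 pairs in runs and 53.5% of all such pairs. For pairs at most 10 kb apart that did not overlap, they were 72.3% of 94 pairs in runs and 54.5% of all such pairs. Part of this came from the longest runs, where 9 of 10 and 8 of 9 pairs shared a strand, but 109 of 161 pairs (67.7%) did so without these 2 runs. Neighbouring models with a shared gene number were mostly on the same strand. Those that did not overlap remained in these shares, and their part was not tested. All genes lay on a single strand in 25 of the 65 runs, 7 of them among the 24 runs of 4 or more genes. Neither strand was favoured, since 124 of the 245 genes lay on the plus strand. Pairs of a run share genes and are not independent, so no test was made.

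**Figure D4:**
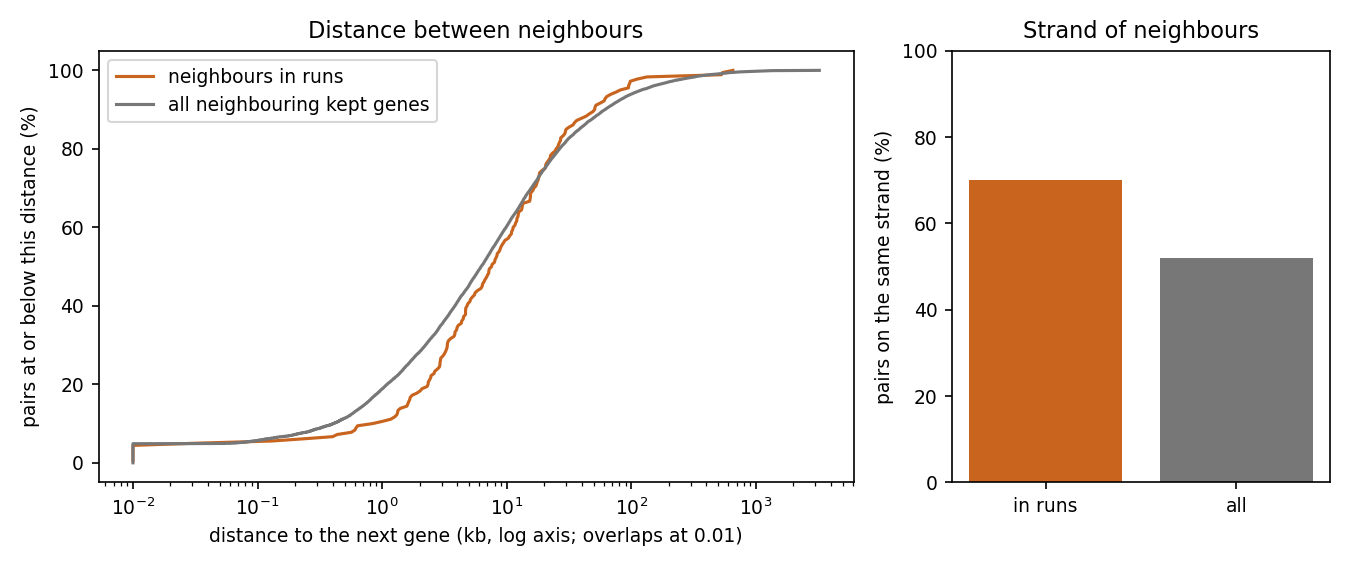
Left, cumulative share of neighbouring pairs (%) by the distance to the next gene (kb, log axis, overlapping pairs drawn at 0.01), for pairs in runs and for all neighbouring kept genes. Right, share of pairs on the same strand (%), 70% in runs and 52.1% over all pairs. The distance curves lie close together above the median, and the strand bars differ.

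Genes in runs were short and scarce in uncut plantlets. Their annotated span, introns included, had a median of 1.55 kb, against 2.22 kb for the 1498 higher genes outside runs and 3.46 kb for all kept genes. Per kb of this span the median level in runs was 18.5 RPM in the cut and 0.8 RPM in the uncut library. Higher genes outside runs had medians of 16.9 RPM per kb in the cut and 1.49 RPM per kb in the uncut library. The cut levels per kb of both groups were thus close, and the uncut level was the lower of the pair for genes in runs. Since the uncut level is a part of the difference that chose both groups, these values describe the groups and test nothing.

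Zero and near-zero values were common among the members in the uncut library. Reads of a member had a median of 819 in the cut library (43 to 54766) and 41 in the uncut library (0 to 11448). In the uncut library 25 members (10.2%) had 0 reads, against 75 (5.01%) of the higher genes outside runs. Fewer than 10 uncut reads were found for 62 members (25.3%) and for 214 (14.3%) of the higher genes outside runs. At least 1 gene without uncut reads was present in 17 of the runs. The minimum of 50 reads over both libraries lets such a gene pass only through its cut reads.

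Runs held many of the very large differences of the series, which again describes values that the choice used. With 0 taken as 3 reads, the difference was at least 4 for 107 members (43.7%), against 394 (26.3%) of the higher genes outside runs. It was at least 6 for 46 members (18.8%), against 85 (5.67%) outside runs. It was at least 8 for 20 members (8.16%), against 11 (0.734%) outside runs, so that the runs held 64.5% of the 31 kept genes at that height. The median difference was 3.78 for members and 2.98 for higher genes outside runs. At least a 100-fold higher level was reached by 35 of the 245 members. The same count was not made outside runs, so this number is no contrast.

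Genes too scarce to be kept also lay inside runs, left out by their reads and not by their difference. There were 115 of them in 31 runs, 32 with reads in either library and 83 without any. Over the 115 the reads came to 314 in the cut and 161 in the uncut library, a log2 ratio of 1.13 (0.85 to 1.41). The same sum over all 16278 scarce genes of the 12 chromosomes was 35709 in the cut and 36746 in the uncut library, a ratio of 0.12 (0.10 to 0.14). Of the 18 scarce genes in runs with at least 10 reads, 13 (72.2%) had the higher RPM in the cut library, against 50.3% of all 2500 such genes, and 8 (44.4%) differed by at least 2, against 24.6%. The 11-gene run and the widest run gave part of the sum, for the ratio was 0.92 without the 11-gene run, 0.99 without the widest run, and 0.72 without both (209 reads in the cut and 142 in the uncut library). A kept gene always has more reads than these, so their ratio rests on few counts. The interval of 0.85 to 1.41 covers counting error and not the spread between genes, and 0.72 lies below it.

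Beyond the ends of the runs the median difference was near that of all genes, and somewhat more genes were higher than in the background. The 129 flanking genes, those next to a run in the order, had a median difference of -0.28, against -0.42 for the 19454 kept genes that were not higher. Above 0 were 50 flanking genes (38.8%), against 30.9% of the kept genes that were not higher. Between 1 and 2 were 18 of them (14%), against 8.8%, and lower in cut by at least 2 were 12 (9.3%), against 8.01%. The 3 members nearest the threshold differed by 2.01, 2.02 and 2.04, and the 3 flanking genes nearest to it by 1.98, 1.93 and 1.91. A flanking gene cannot pass the threshold, since it would then belong to the run.

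At 2 to 5 places outside the runs, 55 of 510 genes were higher (10.8%), against 8.22% of all kept genes, and 31 were lower (6.08%), against 7.35%. By place the higher share was 11.6%, 13.2%, 9.3% and 10.1% for 2, 3, 4 and 5 places outside, which gives no steady decline. Some of these genes belonged to other runs. Leaving those out, 41 of 490 were higher (8.37%), against 7.15% of the 20952 kept genes in no run. The share of higher genes 2 to 5 places outside was thus slightly above the background. Its exact 95% interval, 8.23% to 13.8%, takes genes as independent. Neighbouring genes are not, so the interval may be too narrow and is no test against the 8.22%. Without genes of other runs the share was close to its background. The median difference of the 510 genes was -0.30. Genes around a run are neighbours of each other, so no test was made.

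**Figure D5:**
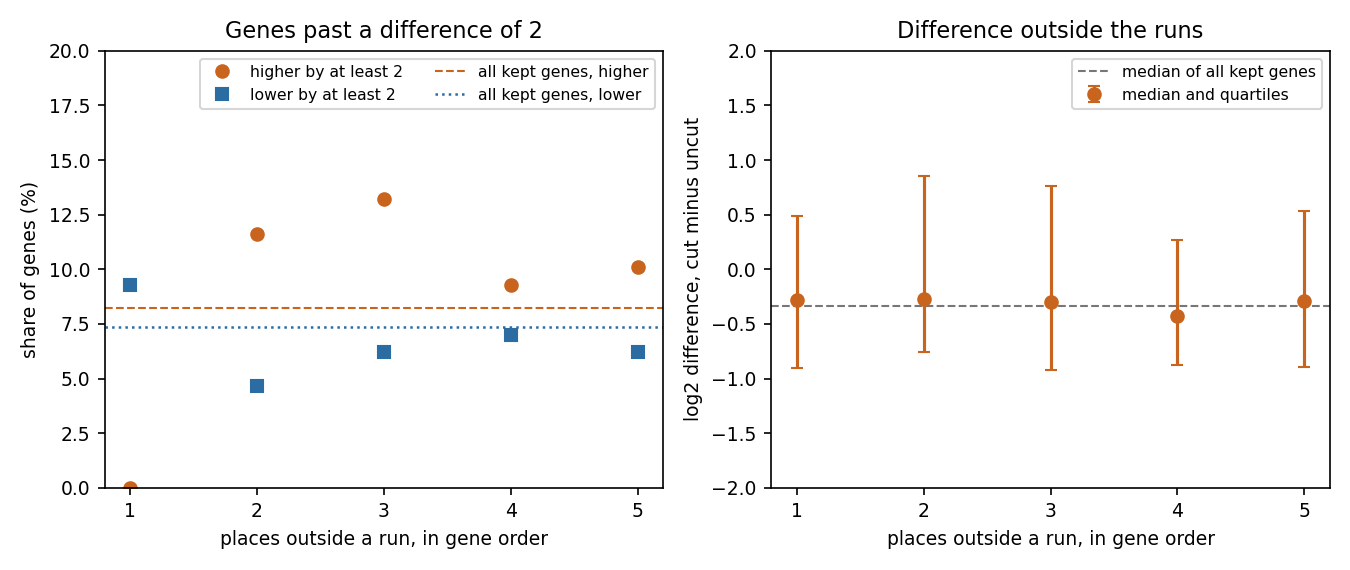
Left, share of genes (%) higher and lower in cut explants by at least 2, at 1 to 5 places outside a run in the order of kept genes, 129 genes per place, with the shares over all kept genes as dashed (8.22%) and dotted (7.35%) lines. Right, median log2 difference, cut minus uncut, with quartiles as bars. The value of 0% higher at the first place follows from how runs were set, and the medians lie near that of all kept genes, -0.34.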

How the data were processed

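According to the study's methods and the submitters' processing notes, RNA was enriched with oligo(dT) beads, base calls were made with CASAVA 1.7, reads were trimmed with Trim Galore 0.5.0 and aligned in paired-end mode with HISAT2 2.1.0 to SolTub 3.0, and uniquely aligned reads of mapping quality 60 were counted over exons in SeqMonk, so reads that match several near-identical copies were left out. The authors corrected for total reads and deposited the values as log2 RPM, in which a gene without reads stands at 0.9 read.

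Whole reads were computed from the steps between the deposited values, and genes were ordered by start, equal starts (121 genes) by end and identifier. Genes with identifiers of the PGSC kind were used (39021 of 40430 features). The columns of both libraries were used, and 0 columns of other samples were present. No p-value, SD or model was computed, since each condition had a single library. Ratios have Clopper-Pearson intervals, and the procedure was checked on simulated reads. Described gene by gene were all runs of 4 or more genes and, up to 25 runs, 3-gene runs in order of cut reads, which admitted 1 of them. The further 3-gene runs given gene by gene were chosen after their values were seen or for a name in the study's sheet. Identifiers are printed for genes with a name in the study's sheet and for 2 others with the largest difference on at least 1 uncut read. Members, lists and alternatives were chosen with earlier results of these data known. Read minima, thresholds, run sizes, scalings, the pseudocount, distance limits and overlaps were varied. Sequences and gene families were not used here. Python 3.11.15, numpy 2.4.6, pandas 2.3.3, scipy 1.17.1 and matplotlib 3.10.9 were used.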

Additional observations from a re-analysis of the deposited data

Results flagged for a closer look

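Sequence that is placed on no chromosome took no part in the comparison and held a further run of higher genes. Of its 381 kept genes, 41 (10.8%) were higher in the cut library by at least 2, and 3 of these were consecutive, all on the plus strand. They had 138, 443 and 515 reads in the cut library, against 35, 113 and 143 in the uncut library, 1096 reads against 291 in sum. Their differences of 2.14, 2.14 and 2.01 were near the threshold, and the order of genes on that sequence is not an order along a chromosome.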

How the results depend on the processing

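No paired analysis was possible because there was a single library of each kind. Of 14 alternatives for each result, the number of runs (65) and of genes in runs (245) stayed within 1.5 times of the value given under 8. A difference of at least 1.5 gave 100 runs with 375 genes and one of at least 3 gave 32 with 128, runs of 2 or more genes numbered 245 with 605 genes and runs of 4 or more 24 with 122, log2(RPM + 1) gave 39 with 147, and 40 with 147 were left when a scarce gene ended a run. These settings admit more or fewer genes by construction. The median distance in runs was 4.35 kb in place of 7.59 kb when a scarce gene ended a run, and 5.55 kb, below the 6.22 kb of all pairs, for runs of 2 or more, and the same-strand share was 77.1%, against 70%, at a difference of at least 3. For the higher share at 2 to 5 places outside (10.8%), the values were 14.3% at 1.5 (11.5% of all kept genes), 6.75% at 3 (4.33%) and 14% (10.2%) after scaling by the median ratio, which brings the median difference from -0.34 to 0. The median cut level of members (24.2 RPM) was 14.4 with a minimum of 10 reads, 42.1 with 200 and 37.7 with log2(RPM + 1). That scaling gave 90 runs with 334 genes, and 11 lower runs with 38. Counting overlapping neighbours as 1 gave 60 runs with 229 genes, of which 225 were among the 245. Models that share a gene number without overlapping were merged in no alternative. A minimum of 10 reads gave 90 runs with 331 genes, 223 of them among the 245, and one of 200 reads gave 47 with 176, 165 of them among the 245. The cause of the other shifts was not tested. The alternatives for the genes outside runs, for the level and for lower runs, the reverse order of equal starts, and 0 taken as 3 reads for the range within runs, were added after seeing the data. With 1 pooled library per condition, counting error is the only error known, and members with 0 to 3 uncut reads have a lower bound or a wide interval.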
